A study of Homo sapiens with 6 samples.

Results

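The human mitochondrial genome carries 37 annotated genes, and all 37 were followed here in K562 cells treated with the iron chelator 21H7 or with DMSO. They were the genes that GENCODE release 44 places on chrM, out of 62252 genes in the count tables, and each had 1 annotated transcript. They comprise 13 mRNAs, 2 ribosomal RNAs and 22 tRNAs. The heavy-strand transcripts, annotated on the plus strand, numbered 28, and the 9 light-strand transcripts, annotated on the minus strand, were MT-ND6 and 8 tRNAs. K562 is an established line from a human chronic myeloid leukaemia with erythroid features. The Chelator group had 10 µM 21H7 in complete RPMI medium overnight, and the DMSO group had an equal volume of the solvent alone. Each group had 3 libraries made from poly(A)-selected RNA and sequenced in pairs on an Illumina instrument. Beyond the treatment, both groups were described alike, and the labels do not say whether the libraries of a group came from separate cultures, so the p-values measure only the spread between these libraries.

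Mitochondrial DNA is a small circle, and each of its strands is read into long transcripts that hold many genes in a row. The tRNAs lie between most of the other genes, and cutting at the 5′ and 3′ ends of each tRNA releases the mRNAs and rRNAs. The mRNAs encode core subunits of the respiratory complexes I, III, IV and V, which also hold subunits made from nuclear genes, and most of them then gain short poly(A) tails. All proteins that copy, transcribe, cut, modify and translate this genome are made from nuclear genes.

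The libraries held 78.6 to 101.1 M (mega) estimated counts. All 37 transcripts matched the 16569-base chrM of GRCh38 base for base. Of 11 erythroid markers, 10 were above 10 TPM (a level corrected for length and library total) in every library, and the exception was EPOR. Of 11 markers of other cell types, ALB, CD14, CD3E and MS4A1 stayed below 1 TPM in every library and KRT18, EPCAM and LYZ were above 10 TPM. Their summed level was 402 to 451 TPM in DMSO and 623 to 696 TPM in Chelator, of which KRT18 alone gave 316 to 360 and 549 to 614 TPM. Of the 10 tested 6 rose, among them KRT18, LYZ, COL1A1 and MPO, and EPCAM and PECAM1 fell. The part of these markers in the results was not tested. The groups also differed in fragment length. For transcripts over 1000 bases with no reads, the median gap between annotated and effective length, which follows the mean fragment length, was 257, 264 and 252 bases for the DMSO libraries against 218, 207 and 200 bases for the Chelator libraries.

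The part of the libraries taken by mitochondrial genome transcripts overlapped between the groups. Their share of all estimated counts was 7.06%, 4.42% and 6.65% in DMSO replicates 1, 2 and 3, and 6.26%, 5.36% and 5.51% in Chelator. The means were 6.04% ± 1.42 and 5.71% ± 0.480 (SD, n = 3 each), a difference of -0.33 percentage points (exact permutation test, two-sided, p = 0.8). DMSO replicate 2 held the lowest share of all 6 libraries, and the difference was -1.15 percentage points without it and 0.18 in the other direction without DMSO replicate 1. As a share of TPM, which weights counts by effective length, the difference was -4.94 percentage points (exact permutation p = 0.2). MT-ATP8 and MT-ND4L, the shortest mRNAs, had the highest TPM and weighed most in it. MT-ATP8 averaged 70959 TPM in DMSO and 41443 TPM in Chelator, and MT-ND4L 26595 and 17182 TPM. Those values rest on the short effective lengths given further on. Only MT-CO2 and MT-ND4 were higher in mean TPM in Chelator. In these bulk samples, fewer mitochondrial genomes per cell and less RNA per genome cannot be told apart. A change in the amount of a transcript and a change in the part of it that carries a tail cannot be told apart either, since the RNA was selected for poly(A).

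**Figure D1:**
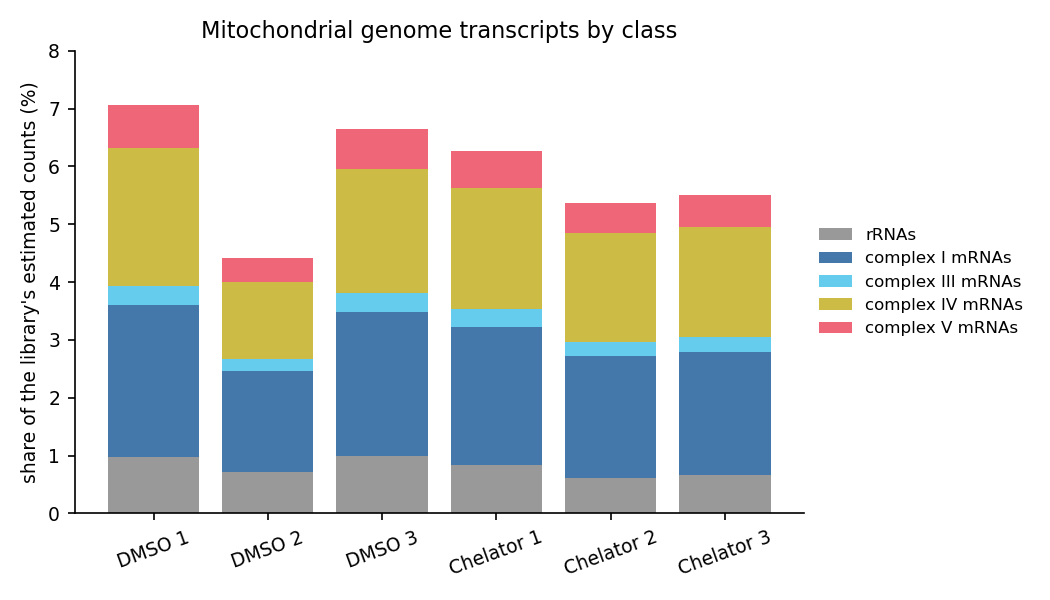
Share of each library's estimated counts (%, bars from 0) taken by mitochondrial genome transcripts, stacked by rRNAs and by the mRNAs of complexes I, III, IV and V, for the 6 libraries. The totals run from 4.42% in DMSO replicate 2 to 7.06% in DMSO replicate 1, and the 3 Chelator libraries lie between them at 5.36% to 6.26%.

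The make-up of that share by respiratory complex overlapped as well. Complex I mRNAs made up 43.2%, 47.2% and 44.2% of the mitochondrial mRNA counts in DMSO and 44.2%, 44.4% and 43.9% in Chelator. Complex IV mRNAs made up 39.2%, 36.0% and 37.6% in DMSO and 38.8%, 39.5% and 39.3% in Chelator. The groups overlapped for both, and also for complex V, which held 11.9% ± 0.621 in DMSO and 11.3% ± 0.283 in Chelator, and for complex III, represented by MT-CYB alone, at 5.62% ± 0.188 and 5.33% ± 0.184 (SD, n = 3). Groups that did not overlap were found for single genes within a complex, as described further on.

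All 22 tRNAs were listed at 0 in every library. They are 59 to 75 bases long, shorter than the fragment length above. A count of 0 allows up to 3 counts, which is 0.0297 to 0.0382 CPM (counts scaled to a common library total) here and covers counting error only. The files therefore give no comparison of the tRNAs, and the light strand was represented by MT-ND6 alone. The other 15 genes were all tested.

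Of these 15 transcripts, 13 had a negative log2 fold change and 5 passed an adjusted p under 0.05 (DESeq2 Wald test over all genes, Benjamini-Hochberg), all 5 lower in Chelator. They were the 12S ribosomal RNA MT-RNR1, the complex I subunit mRNAs MT-ND5, MT-ND6 and MT-ND4L, and the complex V subunit mRNA MT-ATP8. Across the 24542 genes with an adjusted p, 37.7% passed this threshold, and 18.3% passed and were lower. Among the 206 genes with means of 50000 or more normalized counts, where all 15 lie, 65.5% passed and 36.4% passed and were lower. The count of members that passed was thus no higher than among genes of like level. The median log2 fold change was -0.29 over the 15 transcripts, -0.28 over the 13 mRNAs and 0.016 over all genes. None of the 15 also reached an absolute log2 fold change above 1, against 10.8% of all genes, and MT-ATP8 did so without DMSO replicate 2 (-1.05) or without Chelator replicate 1 (-1.03). At an unadjusted p under 0.05 there were 5. By edgeR's quasi-likelihood test 6 had an unadjusted p under 0.05, and 0 reached that fold change.

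**Figure D2:**
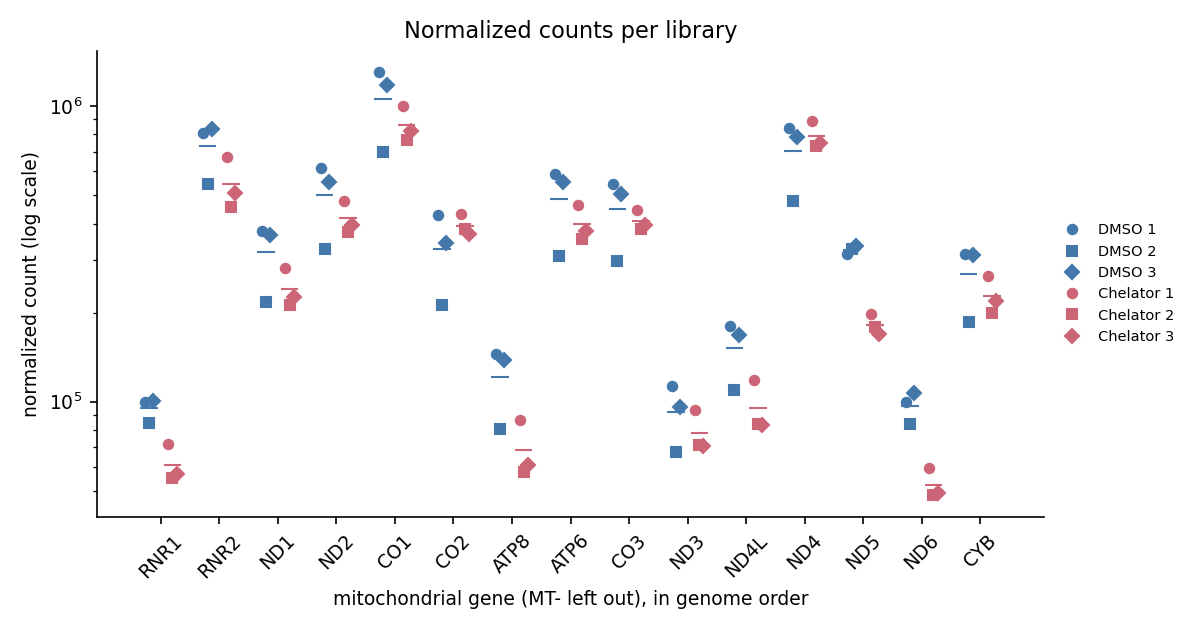
Normalized counts (log axis) of the 15 mitochondrial transcripts with reads, in genome order, with 1 point per library and a short line at each group mean. The groups do not overlap for RNR1, ND5 and ND6, and DMSO replicate 2 lies below the other DMSO libraries for most of the rest.

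Only MT-RNR1, MT-ND5 and MT-ND6 had groups that did not overlap in normalized counts, all lower in Chelator; 23.7% of all genes were lower without overlap. MT-ND5 (chrM:12337-14148, plus strand), a membrane subunit of the proton-pumping arm of complex I, had 316, 327 and 336 normalized kilocounts (units of 1000 counts) in DMSO and 198, 179 and 169 kilocounts in Chelator. The 3 DMSO values lay within a narrow band, and the highest Chelator value was well under it. The log2 fold change was -0.84 (SE 0.076, adjusted p = 2.95e-27 by DESeq2), a fold of 0.557.

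MT-ND6 (chrM:14149-14673, minus strand), also a membrane subunit of complex I, is the mRNA read from the light strand. It had 99.3, 83.7 and 106.9 normalized kilocounts in DMSO and 59.6, 48.2 and 49.0 kilocounts in Chelator. The lowest DMSO library stood above the highest Chelator library. The log2 fold change was -0.89 (SE 0.11, adjusted p = 6.62e-16 by DESeq2). Its share of all mitochondrial counts, which is here the light-strand share, was 1.40%, 2.05% and 1.61% in DMSO and 1.10%, 1.14% and 1.13% in Chelator. That difference of -0.56 percentage points had an exact two-sided permutation p of 0.1, the smallest that 3 against 3 libraries can give.

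MT-ND5 and MT-ND6 are neighbours on opposite strands whose 3′ ends meet. The site is shown because both fell and because reads across it could come from either strand. Below is the plus strand at chrM:14134-14163 (GRCh38), 5′ to 3′, with the stop codon of MT-ND5 and then the reverse complement of the stop codon of MT-ND6 in capitals.
MT-ND5 end to MT-ND6 end: ctcctaatcacaTAACCTattcccccgagc
The first capital triplet ends MT-ND5 at base 14148, and MT-ND6 ends at base 14149, so the annotated genes abut and share no base. Whether strand was used in counting is not given in the sources used here, and an MT-ND5 transcript that runs on past its annotated end cannot then be told apart from MT-ND6. The ratio of MT-ND6 to MT-ND5 counts was 0.293, 0.244 and 0.300 in DMSO and 0.312, 0.287 and 0.314 in Chelator, and the groups overlapped.

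MT-RNR1 (chrM:648-1601, plus strand) encodes the 12S RNA of the small mitochondrial ribosomal subunit. It had 99.7, 84.8 and 100.2 normalized kilocounts in DMSO and 71.6, 55.1 and 56.7 kilocounts in Chelator. The groups were separate, with Chelator replicate 1 the nearest to DMSO. The log2 fold change was -0.63 (SE 0.11, adjusted p = 1.57e-08 by DESeq2). Its neighbour MT-RNR2 (chrM:1671-3229), the 16S RNA of the large subunit, had 809, 544 and 833 kilocounts in DMSO and 671, 456 and 507 kilocounts in Chelator. Those groups overlapped and the log2 fold change of -0.42 (SE 0.25) did not pass (adjusted p = 0.191). The ratio of the small to the large rRNA overlapped between the groups, at 0.119 to 0.152 in DMSO and 0.108 to 0.124 in Chelator.

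Both rRNAs together made up 13.7%, 16.1% and 14.8% of the mitochondrial counts in DMSO and 11.4% to 13.2% in Chelator. All 3 Chelator values were under all 3 DMSO values, and the difference of -2.64 percentage points had an exact two-sided permutation p of 0.1, again the smallest possible. It was not seen as a share of TPM, where the difference was -0.066 percentage points (exact permutation p = 1). That share was weighted by MT-ATP8, which averaged 70959 TPM in DMSO and 41443 TPM in Chelator at effective lengths of 19 to 27 bases. Mean TPM itself was lower in Chelator for both rRNAs. It was 1754 in DMSO and 1154 in Chelator for MT-RNR1, and 7566 and 5818 for MT-RNR2. Since the RNA was selected for poly(A), the rRNA counts come from rRNA molecules that passed that selection and do not measure the whole rRNA pool.

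The remaining transcripts that passed are the shortest of the mRNAs. MT-ATP8 (chrM:8366-8572, 207 bases) encodes a small membrane subunit of ATP synthase. It had 144.7, 80.9 and 137.9 normalized kilocounts in DMSO and 86.7, 57.9 and 60.9 kilocounts in Chelator, with DMSO replicate 2 inside the Chelator range. Its log2 fold change was -0.82 (SE 0.31, adjusted p = 0.0225 by DESeq2). MT-ND4L (chrM:10470-10766, 297 bases), a membrane subunit of complex I, had 179.8, 109.2 and 167.4 kilocounts in DMSO and 118.6, 84.2 and 83.2 kilocounts in Chelator. DMSO replicate 2 was again inside the Chelator range, and the log2 fold change was -0.67 (SE 0.27, adjusted p = 0.0361).

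For these short genes the value rested on how length was handled. Normalized counts were corrected for effective length, the number of positions from which a fragment could arise, and this grew as fragments became shorter. The effective length of MT-ATP8 was 19 bases in every DMSO library and 22 to 27 bases with 21H7. That of MT-ND4L was 53 to 60 bases against 85 to 100 bases, and that of MT-ND3 (346 bases) was 90 to 100 and 131 to 148 bases. Without this correction the log2 fold change was -0.48 for MT-ATP8, 0.0066 for MT-ND4L and 0.30 for MT-ND3, and none of the 3 passed. MT-ND5, MT-ND6 and MT-RNR1 passed either way, at -0.82, -0.70 and -0.56 without the correction. In the uncorrected counts, MT-ND4L took 2.15% ± 0.0923 of the mitochondrial counts in DMSO and 2.43% ± 0.0180 in Chelator (SD, n = 3), the opposite direction to its corrected fold change.

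MT-ATP8 and MT-ND4L are also the first reading frames of transcripts that each carry 2 genes. The junctions are shown because the second gene of each pair starts before the first has ended. Each line gives the plus strand 5′ to 3′, at chrM:8515-8544 and chrM:10748-10777 (GRCh38), with the start codon of the second gene in capitals.
MT-ATP8 into MT-ATP6: ctgagaaccaaaATGaacgaaaatctgttc
MT-ND4L into MT-ND4: aaacctactccaATGctaaaactaatcgtc
The annotated genes overlap by 46 bases in the first pair and by 7 bases in the second, so that 16 stretches of 31 bases are shared in the first pair and 0 in the second. In counts as estimated, MT-ATP8 over MT-ATP6 was 0.227, 0.243 and 0.230 in DMSO and 0.184, 0.180 and 0.190 in Chelator. MT-ND4 over MT-ND4L was 5.90, 5.87 and 5.57 in DMSO and 6.47, 6.76 and 6.66 in Chelator. Neither ratio overlapped between the groups, and the genes of each pair are known to lie on the same mRNA. With the length correction the log2 fold change was -0.82 for MT-ATP8 and -0.28 for MT-ATP6. It was -0.67 for MT-ND4L and 0.17 for MT-ND4, and neither MT-ATP6 nor MT-ND4 passed. The passing values of MT-ATP8 and MT-ND4L were thus not shared by the other gene of the same mRNA.

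**Figure D3:**
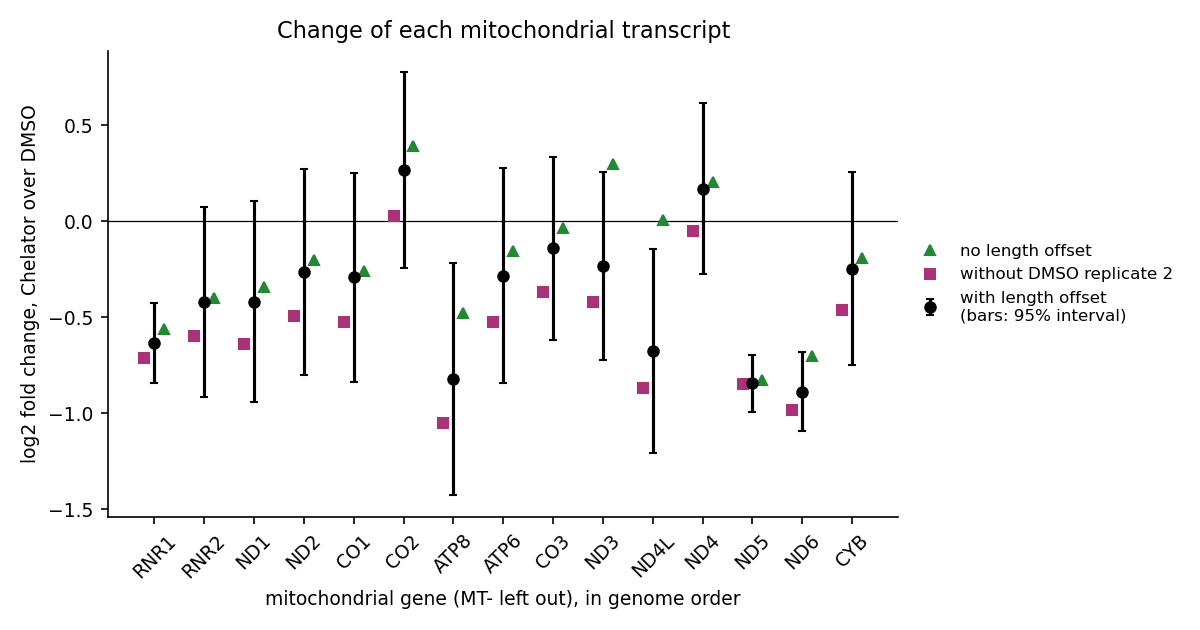
Log2 fold change of Chelator over DMSO for the 15 transcripts in genome order, with the 95% interval of the length-corrected fit as bars, the values with no length offset as triangles and the values without DMSO replicate 2 as squares. Most transcripts lie below 0 in all 3, while ND4L and ND3 move from below 0 to 0.0066 and 0.30 when the offset is left out and CO2 and ND4 lie above 0 with all libraries.

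The other 10 transcripts did not pass, and their intervals all included 0. Most abundant was MT-CO1, the catalytic subunit of cytochrome c oxidase (complex IV), with 1302, 697 and 1174 normalized kilocounts in DMSO and 1002, 768 and 824 kilocounts in Chelator. Its log2 fold change was -0.29 (95% interval -0.83 to 0.25). The values for the complex I subunits MT-ND1, MT-ND2 and MT-ND3 were -0.42, -0.26 and -0.23. They were -0.14 for MT-CO3 of complex IV, -0.28 for MT-ATP6, the proton-channel subunit of ATP synthase, and -0.25 for MT-CYB, the haem-binding cytochrome b of complex III.

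Both members with positive values encode subunits of different complexes. MT-CO2, the copper-binding subunit of complex IV that accepts electrons from cytochrome c, had 427, 212 and 343 normalized kilocounts in DMSO and 430, 383 and 369 kilocounts in Chelator. The log2 fold change was 0.27 (SE 0.26, adjusted p = 0.472 by DESeq2). MT-ND4, a membrane subunit of complex I, had 843, 475 and 787 kilocounts in DMSO and 886, 734 and 750 kilocounts in Chelator, for a log2 fold change of 0.17 (SE 0.23, adjusted p = 0.62). In both genes the DMSO range enclosed most of the Chelator values.

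DMSO replicate 2 stood apart in a way that differed between genes. Against the mean of the other DMSO libraries, in CPM, it held 0.569 (MT-ATP6) to 0.706 (MT-RNR2) times as much of 12 of the 15 transcripts. For MT-RNR1, MT-ND6 and MT-ND5 the values were 0.891, 0.876 and 1.06. Those were the same 3 genes whose groups did not overlap. Without DMSO replicate 2, 13 of the 15 transcripts passed, all lower in Chelator, and the median log2 fold change was -0.52. In that fit 38.2% of all genes passed and their median was 0.037. The exceptions were MT-CO2 and MT-ND4, at 0.029 and -0.049. Without DMSO replicate 1, DMSO replicate 3, Chelator replicate 2 or Chelator replicate 3 only MT-RNR1, MT-ND5 and MT-ND6 passed, and without Chelator replicate 1 the 5 passed together with MT-RNR2.

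The calls also depended on the scaling of the libraries. When the 13 mitochondrial mRNAs themselves set the size factors, so that changes are read relative to them, the median log2 fold change of all genes moved to 0.24. In that fit 2952 of all genes passed (9260 with the usual size factors) and none of the 15 did, although 5 had an unadjusted p under 0.05. MT-ND5 and MT-ND6 were then at -0.63 and -0.64 and MT-CO2 and MT-ND4 at 0.59 and 0.47. This scaling sets the mRNAs near 0 by its construction, so it says nothing of their common direction.

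Shares within the mitochondrial counts do not depend on any scaling between libraries, although they do rest on counts uncorrected for length. Because they add up to a whole, a lower share of some genes entails a higher share of others. MT-ND4 made up 12.7%, 12.1% and 12.5% of mitochondrial counts in DMSO and 15.8%, 16.5% and 16.0% in Chelator. MT-CO2 made up 6.22%, 5.16% and 5.35% in DMSO and 7.81%, 8.92% and 8.24% in Chelator. The Chelator libraries were all above the DMSO libraries for both.

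MT-ND5 made up 4.78%, 8.37% and 5.38% in DMSO and 3.52%, 3.99% and 3.59% in Chelator, with DMSO replicate 2 the highest. The shares of MT-RNR1, MT-RNR2, MT-ND1, MT-ATP8 and MT-ND6 were likewise lower in all Chelator libraries. Those of MT-CO3, MT-ND3 and MT-ND4L were higher in all of them. The shares of MT-ND2, MT-CO1, MT-ATP6 and MT-CYB overlapped. MT-CO1 was the largest share in every library, with 18.7% ± 0.953 for DMSO and 17.6% ± 0.293 for Chelator (SD, n = 3).

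**Figure D4:**
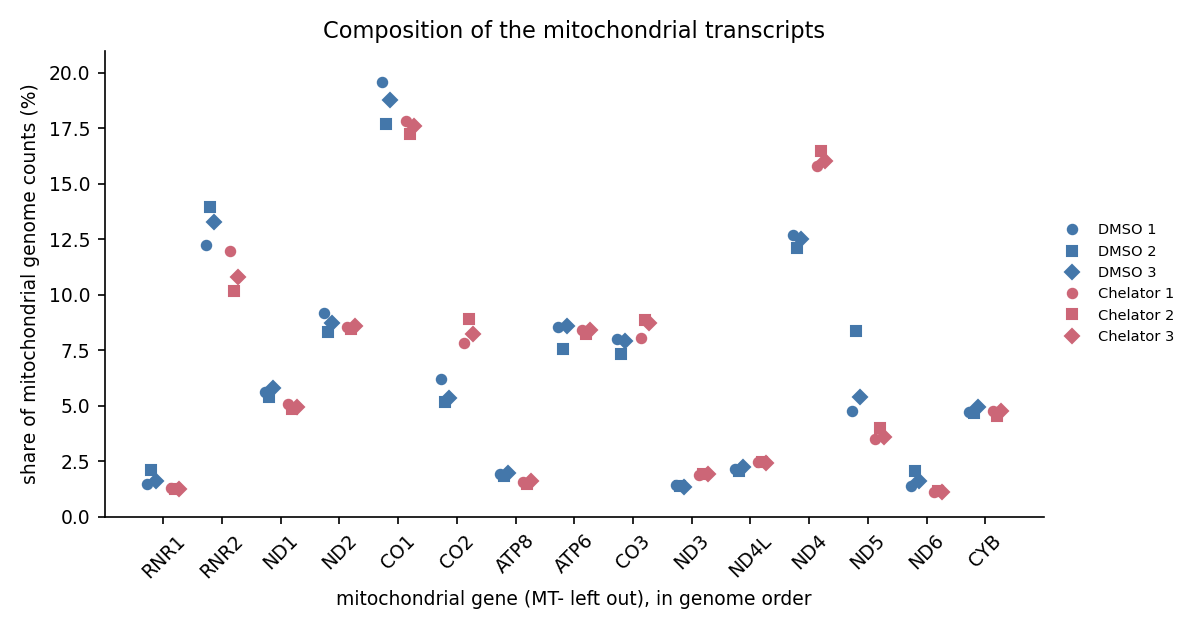
Share of the mitochondrial genome counts (%) taken by each of 15 transcripts, in genome order, with 1 point per library. ND4 and CO2 are higher in all 3 Chelator libraries (15.8% to 16.5% and 7.81% to 8.92%) and ND5 is lower (3.52% to 3.99%), while DMSO replicate 2 is the highest for ND5 at 8.37%.

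Some genes that lie next to each other on the heavy strand differed in their ratio between the groups. The ratio of MT-ND5 to MT-ND4 counts, neighbours separated only by tRNAs, was 0.376, 0.691 and 0.430 in DMSO and 0.222, 0.242 and 0.224 in Chelator. The ratio of MT-CO2 to MT-CO1 was 0.317, 0.291 and 0.285 in DMSO and 0.438, 0.517 and 0.468 in Chelator. The Chelator libraries were all below DMSO for the first ratio and all above it for the second. In contrast, MT-CO3 over MT-ATP6, whose annotated genes share 1 base, overlapped at 0.922 to 0.971 and 0.954 to 1.08. MT-CO1 over MT-CYB also overlapped, at 3.79 to 4.17 and 3.71 to 3.80.

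Levels of different genes were compared as CPM per kilobase of annotated length. In DMSO the highest were MT-CO1 and MT-ATP6, at 7385 ± 2052 and 7380 ± 2157 (SD, n = 3). MT-CO3, MT-ATP8, MT-ND4, MT-ND2, MT-RNR2, MT-CO2, MT-ND4L and MT-ND1 followed, from 6018 ± 1648 down to 3559 ± 928, and no neighbours in this order differed by more than the SD of either. MT-CYB (2538 ± 630) and MT-ND3 (2417 ± 615) came next. MT-ND5 (1959 ± 88.8), MT-ND6 (1882 ± 162) and MT-RNR1 (1059 ± 69.0), the 3 transcripts with non-overlapping groups, were the least abundant on this scale.

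On the same scale in Chelator, MT-ATP6 stood at 7009 ± 653, MT-CO2 at 6928 ± 262, MT-ND4 at 6672 ± 441 and MT-CO1 at 6508 ± 647 (SD, n = 3), neighbours that differed by less than the larger SD of each pair. MT-ND6, MT-ND5 and MT-RNR1 were again lowest, at 1220 ± 77.1, 1162 ± 64.0 and 756 ± 77.1. TPM, which divides by effective length, gave another order for the short genes, since MT-ATP8 ranked first in DMSO at 70959 ± 15009 TPM, where counts per annotated kilobase ranked it 4.

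The 3′ ends bear on a poly(A) library because added A bases can complete a stop codon. In the annotation, 6 of the 13 mRNAs end in an incomplete stop codon that only added A bases can complete. The annotated ends of the mRNAs whose shares differed most are shown, as the last 24 bases on the coding strand, 5′ to 3′, with the bases of the last codon in capitals. They lie at chrM:12114-12137 (MT-ND4), chrM:8246-8269 (MT-CO2) and chrM:14125-14148 (MT-ND5).
MT-ND4: acatcattaccgggttttcctctT
MT-CO2: atagggcccgtatttaccctaTAG
MT-ND5: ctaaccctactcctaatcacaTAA
MT-ND4 ends in a lone T, while MT-CO2 and MT-ND5 have whole stop codons. The incomplete group held MT-ND1, MT-ND2, MT-CO3, MT-ND3, MT-ND4 and MT-CYB, with log2 fold changes of -0.42 to 0.17. The 7 annotated with a whole last codon ran from -0.89 (MT-ND6) to 0.27 (MT-CO2). Among them MT-CO1 and MT-ND6 end in AGA and AGG. The last A of the MT-ATP6 stop codon, base 9207, is also the first base of MT-CO3, so MT-ATP6 is whole by annotation only. The ranges of the incomplete and whole groups overlap, and a difference between them was not tested.

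Nuclear DNA holds copies of mitochondrial genes, and these can share reads with the originals. Of the 31-base stretches of each transcript, 62.3% of MT-CO1, 61.3% of MT-ATP6, 56.9% of MT-ND2 and 50.5% of MT-CO2 also occurred in nuclear transcripts. The share was 13.4% for MT-ND5, 30.3% for MT-ND6, 1.11% for MT-RNR2 and 0% for MT-RNR1 and MT-ND3. Only nuclear genes with a total count above 10 here were searched, so annotated copies without reads do not enter these shares. The 404 annotated nuclear copies held counts equal to 0.458% to 0.589% of the mitochondrial counts in DMSO and 0.893% to 1.04% in Chelator. Adding each copy to its original left the same 5 transcripts past the threshold.

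Nearly all copy counts belonged to MTATP6P1, the copy of MT-ATP6, with 37044, 17353 and 36073 normalized counts in DMSO and 46896, 39372 and 43783 in Chelator. DMSO replicate 2 was low here as well, and the log2 fold change of 0.52 (SE 0.32) did not pass (adjusted p = 0.194 by DESeq2). Of the 5 other copies with a mean of at least 100 counts, MTND4P12 (1.24), MTCO1P12 (1.04) and MTND2P28 (0.68) were higher in Chelator, MTCO1P1 (-0.84) was lower and MTND1P23 (0.079) did not pass. Reads that fit both a copy and its original could have been assigned to either.

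The nuclear genes that keep and express the mitochondrial genome were mostly lower. Of 98 tested genes on 6 lists (replication, transcription, RNA processing, RNA modification, translation factors and biogenesis), 63 fell, 5 rose and 30 did not pass, with a median log2 fold change of -0.33. Among all genes averaging 1000 or more normalized counts, 38.2% were lower and 24.8% higher at this threshold. With no length offset 64 fell and 7 rose. Relative to the 13 mitochondrial mRNAs, 2 fell and 2 rose, with a median of -0.10 against 0.24 over all genes.

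Mitochondrial transcription factors fell in 7 of 9 genes and rose in none. TFB2M, needed to start transcription, had a log2 fold change of -0.69 (SE 0.078), with 6024, 5488 and 5747 normalized counts in DMSO and 3395, 3558 and 3748 in Chelator. MTERF2, a member of the termination factor family, was at -0.53 (SE 0.12) and the elongation factor TEFM at -0.43 (SE 0.13). The RNA polymerase POLRMT and the DNA-packaging factor TFAM, named after their values were seen, were at -0.29 (SE 0.066) and -0.42 (SE 0.072), and both passed. TFAM was at -0.77 without the length offset.

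RNA processing and decay genes fell in 18 of 24 cases. PRORP, the nuclease subunit of the RNase P that cuts the 5′ ends of tRNAs, had 3268, 3808 and 3166 normalized counts in DMSO and 1711, 1591 and 1643 in Chelator, a log2 fold change of -1.05 (SE 0.097, adjusted p = 7.60e-26 by DESeq2). Its partner TRMT10C was at -0.95 and passed, the third subunit HSD17B10 at 0.12 (adjusted p = 0.244) did not, and ELAC2, which cuts the 3′ ends of tRNAs, was at -0.85 and passed. PTCD1, a tRNA-binding protein, had 4090, 4216 and 4857 normalized counts in DMSO and 2272, 2184 and 2118 in Chelator, and TBRG4 (FASTKD4), which affects the levels of several mitochondrial mRNAs, was at -0.96. LRPPRC and SLIRP, which bind and stabilise mitochondrial mRNAs, fell by 0.37 and 0.65 on the log2 scale, and the poly(A) polymerase MTPAP fell by 0.47. Without the length offset SLIRP did not pass (-0.18), LRPPRC was at -0.59 and HSD17B10 passed at 0.22, so that 2 genes of this list were then higher. With the offset the one that rose was FASTK, at 0.58 (SE 0.11), which binds MT-ND6 RNA. TRMT10C, HSD17B10, ELAC2, LRPPRC, SLIRP and MTPAP were named after their values were seen.

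Of the rRNA and tRNA modification genes 17 of 25 fell and none rose. QTRT2, a subunit of the enzyme that inserts queuosine into tRNAs, was at -1.04 (SE 0.088), and the tRNA methyltransferases TRMT61B and TRMT1 were at -0.76 and -0.64. Of the translation factors 10 of 17 fell and none rose, led by the elongation factor GFM1, with 13345, 12619 and 14435 normalized counts in DMSO and 6217, 6073 and 6742 in Chelator (-1.09, SE 0.080). GUF1 and MTFMT, which formylates the initiator tRNA, were at -0.81 and -0.69.

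Replication and upkeep genes were more mixed, with 8 lower, 3 higher and 4 not passed of 15. The lower count was 4 by edgeR and 5 with TMM size factors, and 5 without DMSO replicate 1, DMSO replicate 3 or Chelator replicate 3. The helicase TWNK was at -0.63, RNASEH1, which removes RNA from RNA-DNA hybrids, at -0.67 and the topoisomerase TOP3A at -0.74. PRIMPOL (0.48) and the nucleoside kinases TK2 (0.45) and DGUOK (0.42), which supply DNA precursors, were higher, although TK2 did not pass with a replicate block, without DMSO replicate 1 or without Chelator replicate 3. PRIMPOL was at 0.25 without the length offset and passed. Among 9 biogenesis regulators 4 fell, including NRF1 (-0.48), GABPA (-0.33) and the coactivator PPRC1 (-0.67), and NFE2L2 rose (0.45).

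Nuclear subunits of the same respiratory complexes more often rose than fell. Of 75 tested, 39 rose, 9 fell and 27 did not pass, with a median log2 fold change of 0.25. Over all genes 19.5% were higher and 18.3% lower, and among those averaging 1000 or more normalized counts 24.8% and 38.2%. Without DMSO replicate 2, 34 of the 75 rose and 13 fell, with a median log2 fold change of 0.18. In that fit 38.2% of all genes passed in either direction. For complex IV, 10 of 11 nuclear subunits rose and none fell, led by COX7B, with 3314, 2308 and 3374 normalized counts in DMSO and 6875, 9105 and 8609 in Chelator (1.45, SE 0.14). COX6C (1.04) and NDUFA4 (0.93) followed. Without the length offset COX7B was at 0.45 and passed, below COX6C at 1.22. The mitochondrially encoded subunits of that complex, MT-CO1, MT-CO2 and MT-CO3, were at -0.29, 0.27 and -0.14 and none passed.

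In complex V 10 of 18 nuclear subunits rose, among them ATP5F1E (1.25), ATP5MG (0.73) and ATP5PD (0.60), and 2 fell, the catalytic-head subunits ATP5F1A (-0.21) and ATP5F1B (-0.15). By edgeR neither of these passed (adjusted p = 0.0561 and 0.177), nor did either without DMSO replicate 3 or without Chelator replicate 2, and 4 subunits fell without DMSO replicate 2. In complex III 6 of 9 rose, led by UQCRB (0.86), UQCR11 (0.80) and UQCRQ (0.62), and 3 fell, namely UQCRC1 (-0.44), the haem protein CYC1 (-0.26) and the Rieske iron-sulphur protein UQCRFS1 (-0.25). In complex I 13 of 37 rose and 4 fell. With no length offset 20 rose and 4 fell. Without DMSO replicate 2 the counts were 10 and 6, with a median of 0.035, and without DMSO replicate 3 they were 9 and 3. With all libraries and the offset NDUFA1 (0.67), NDUFA13 (0.59) and NDUFB6 (0.56) were the highest. The 4 that fell included NDUFV3 (-0.48), NDUFB10 (-0.37) and NDUFS3 (-0.31), while the mitochondrially encoded MT-ND4L, MT-ND5 and MT-ND6 fell and the other 4 did not pass. Relative to the 13 mitochondrial mRNAs 17 of the 75 rose and none fell, in the fit where 2952 of all genes passed in either direction. Without the length offset UQCR11 was at 0.35 and passed, while NDUFB6, NDUFB10 and NDUFS3 did not pass, and NDUFS3 also did not pass without DMSO replicate 3 or without Chelator replicate 1. The difference between nuclear and mitochondrially encoded subunits was not tested.

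**Figure D5:**
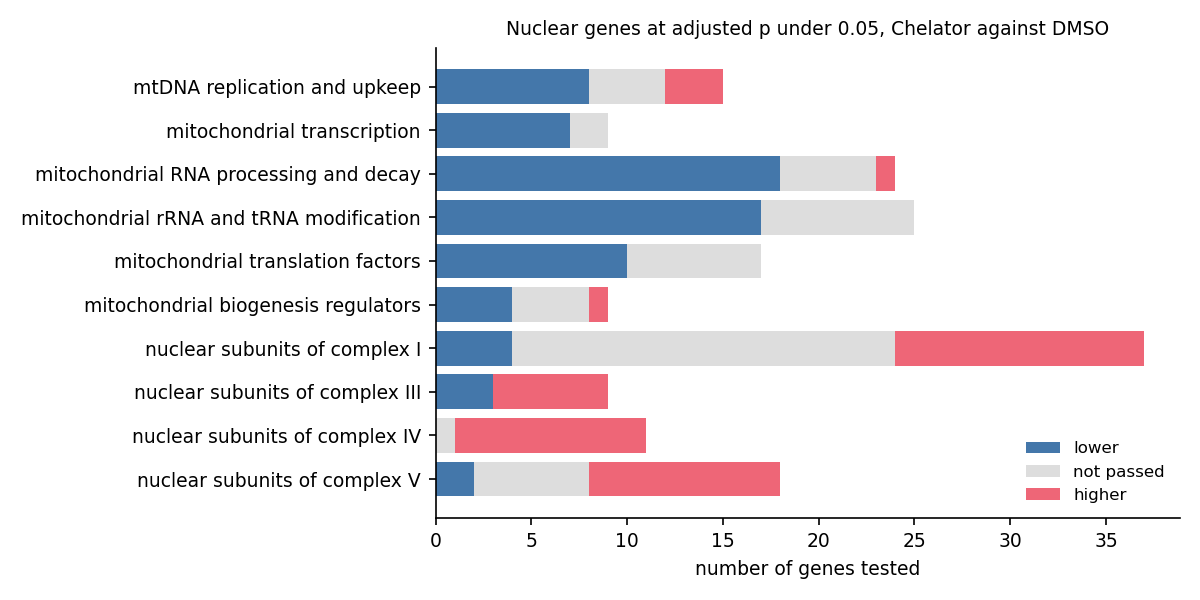
Number of nuclear genes (bars from 0) on each of 10 lists that were lower, higher or not past an adjusted p under 0.05 in Chelator against DMSO. Lower genes prevail in RNA processing (18 of 24) and transcription (7 of 9), and higher genes in the nuclear subunits of complex IV (10 of 11).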

How the data were processed

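Salmon 1.10.2 was named in the submitters' processing notes, with hg38. The deposited files gave, per transcript, estimated counts, TPM, length and effective length, all made by the authors; the estimated counts are not whole and were rounded after summing per gene. Of 252045 transcripts, 251142 matched a GENCODE release 44 identifier and version, 470 another version and 433 none. These 433 took 0.139% to 0.150% of the counts and were left out. The authors' TPM values were used for levels and marker checks only. Genes with a total count above 10 were fitted with DESeq2 1.42.0 (R 4.3.3, Wald test, median-ratio size factors, average effective length as an offset), as 3 against 3 libraries with no covariate. Shares were compared by exact permutation tests (scipy 1.17.1). The fit was tested on simulated data made with equal lengths, so the length offset was not tested there. Alternatives were edgeR 4.0.16 (quasi-likelihood), other size factors, no length offset, other filters, nuclear copies added to their originals, a replicate block, shares of TPM and leaving out each library. Size factors from the 13 mitochondrial mRNAs together with no length offset were added after seeing the data.

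All mitochondrial genes were named, with up to 3 genes per list and direction that passed and averaged 100 or more normalized counts, and the nuclear copies with a mean count of at least 100. The members and lists were chosen with earlier results of these data known. Libraries were compared before averaging, and no pair agreed within sampling noise, with a chi-square per gene of 5.74 to 49.7 within groups and 171 to 261 between groups.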

Additional observations from a re-analysis of the deposited data

How the results depend on the processing

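The 5 transcripts that passed were the same by edgeR, TMM size factors, size factors without chrM genes, both other count filters and with nuclear copies added. With no length offset 3 passed, and with size factors from the 13 mitochondrial mRNAs, with or without the offset, 0 passed by DESeq2 (5 and 4 at an unadjusted p under 0.05). Over all genes 2952 and 2889 passed under those size factors with and without the offset, against 9260. Leaving out each library gave 3 to 13 mitochondrial transcripts, and 13 only without DMSO replicate 2. The mitochondrial share of counts differed by -1.15 (without DMSO replicate 2) to 0.18 (without DMSO replicate 1) percentage points, and by -4.94 as a share of TPM. The rRNA share differed by -0.066 as a share of TPM, against -2.64. Both shares of TPM were weighted by the short MT-ATP8, which had the highest TPM. Signs turned under the 13-mRNA size factors for MT-ND2 (0.044), MT-CO1 (0.014), MT-ATP6 (0.027), MT-CO3 (0.17), MT-ND3 (0.048), MT-CYB (0.047), ATP5F1A (0.018) and ATP5F1B (0.068). With those size factors and no offset they turned for MT-ATP6 (0.040), MT-CO3 (0.16), MT-ND3 (0.48), MT-ND4L (0.19) and NDUFS3 (0.072), and the median of all genes was 0.12. With no length offset alone they turned for MT-ND3 (0.30) and MT-ND4L (0.0066), without DMSO replicate 1 for MT-CO3 (0.017, range -0.37 to 0.017 over left-out libraries) and without DMSO replicate 2 for MT-ND4 (-0.049, range -0.049 to 0.32). None of these turned values had an adjusted p under 0.05. The cause was not tested. Of the 240 values of single mitochondrial genes under alternatives, 197 kept their direction and side of the threshold and 14 turned. With the direction kept, 10 newly passed and 19 no longer passed. The turned values of MT-ND4L also no longer passed.

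With a replicate block 5 transcripts passed, MT-RNR2 in place of MT-ATP8, and 8353 genes passed overall. Across groups the labels tie libraries by replicate number only. The deviations of same-numbered libraries from the group means correlated at -0.075, 0.13 and 0.10 over 13492 genes for replicates 1, 2 and 3. For replicates 2 and 3 this was the highest correlation of each library, and for replicate 1 it was not. Whether the libraries were paired cannot be told from these values.

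With 3 libraries a group, shares cannot reach an exact p under 0.1. The tRNAs could not be compared at a count of 0.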
